A study of Mus musculus with 2 samples.

Results

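miR-191 and miR-425 are microRNAs (miRNAs) made from hairpins that neighbour each other on mouse chromosome 9, beside or within the gene Dalrd3 depending on the annotation. The members described here are both arms of both hairpins, mmu-miR-191-5p, mmu-miR-191-3p, mmu-miR-425-5p and mmu-miR-425-3p, taken by name from a table of 1915 mature miRNA names, of which they are 4. The study sequenced small RNA from unstimulated bone marrow derived macrophages (BMDMs) of wild type C57/BL6 mice aged 8 weeks, to rank the miRNAs of these cells. BMDMs are primary macrophages grown from marrow precursors in medium conditioned by L-cells. The 2 libraries are biological replicates 1 and 2 of this single condition, so the data hold no treatment, genotype or cell type to compare. Replicate 1 held 7322969 counts and replicate 2 held 8094314 counts.

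A miRNA hairpin is cut into a duplex of a 5p and a 3p arm, and the Argonaute protein mostly keeps 1 arm, the guide, while the passenger arm is degraded. The seed, near the 5′ end of the guide, pairs with target mRNAs and largely sets which mRNAs are repressed. miR-191 is abundant in many tissues and has served as a reference for other miRNAs in expression profiling, and Dalrd3 encodes a tRNA-binding partner of a tRNA methyltransferase.

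The mature sequences are shown because the arms and their seeds set the members apart, with the seed (bases 2 to 8) in capitals. They come from RefSeq (GRCm38.p6), as does miR-489-3p, the only other named miRNA of that table with the seed of a member.
miR-191-5p: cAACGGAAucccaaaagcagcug
miR-191-3p: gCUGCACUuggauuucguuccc
miR-425-5p: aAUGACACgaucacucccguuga
miR-425-3p: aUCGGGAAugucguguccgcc
miR-489-3p: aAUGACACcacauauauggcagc
The 4 members have 4 different seeds, so they do not form a seed family. miR-425-5p and miR-489-3p share their seed and are identical at 12 of 23 positions. miR-489-3p had 0 counts in both libraries, which allows up to 0.410 and 0.371 reads per 1000000 library counts (RpM) at a limit of 3 counts. No member sequence occurs in another hairpin of the table, and the longest run that a member shares with another mature miRNA of the table is 8 bases. The table holds 1623 of the 1915 names, and the other names were not compared.

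Both hairpins are shown because the values below are read as arms of each, with the 2 arms in capitals.
Mir191: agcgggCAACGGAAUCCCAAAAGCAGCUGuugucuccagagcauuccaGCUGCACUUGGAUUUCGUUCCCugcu
Mir425: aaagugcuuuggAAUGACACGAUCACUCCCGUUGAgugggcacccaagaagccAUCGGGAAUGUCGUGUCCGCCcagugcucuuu
Mir191 is 74 bases long with 19 bases between its arms, and Mir425 is 85 bases long with 18 bases between them. Folded in silico, the minimum free energy was -35.0 kcal/mol for Mir191 and -31.7 kcal/mol for Mir425. In these folds 19 of 23 bases of miR-191-5p were paired, against 14 of 23 bases of miR-425-5p. Of the 3p arms, 19 of 22 bases of miR-191-3p and 17 of 21 bases of miR-425-3p were paired. The predicted duplex of miR-191 was thus the more fully paired of the pair, and GC content was 54.1% in both hairpins.

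Mir191 lies at chr9:108568319-108568392 and Mir425 at chr9:108568777-108568861, both on the plus strand, with 384 bases between them and 543 bases from the first base of the former to the last base of the latter. The placement in Dalrd3 differs between annotations of GRCm38. In RefSeq, Dalrd3 spans chr9:108567484-108572773, and the hairpins start 835 and 1293 bases after its first base. In GENCODE M21, Dalrd3 starts at 108569886, and Mir191 and Mir425 end 1493 and 1024 bases before it. GENCODE M21 puts both hairpins in the single exon of the lincRNA transcript 4833445I07Rik-201, which spans chr9:108567533-108569174. In its other transcript, 4833445I07Rik-202, Mir191 lies in the intron and Mir425 lies outside. The label that puts these miRNAs in Dalrd3 thus holds in the RefSeq gene span and not in the GENCODE M21 gene. A predicted miRNA gene on the minus strand, Gm24083, covers Mir191 from chr9:108568295-108568414, and whether reads were assigned by strand is not given in the sources used here.

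**Figure D1:**
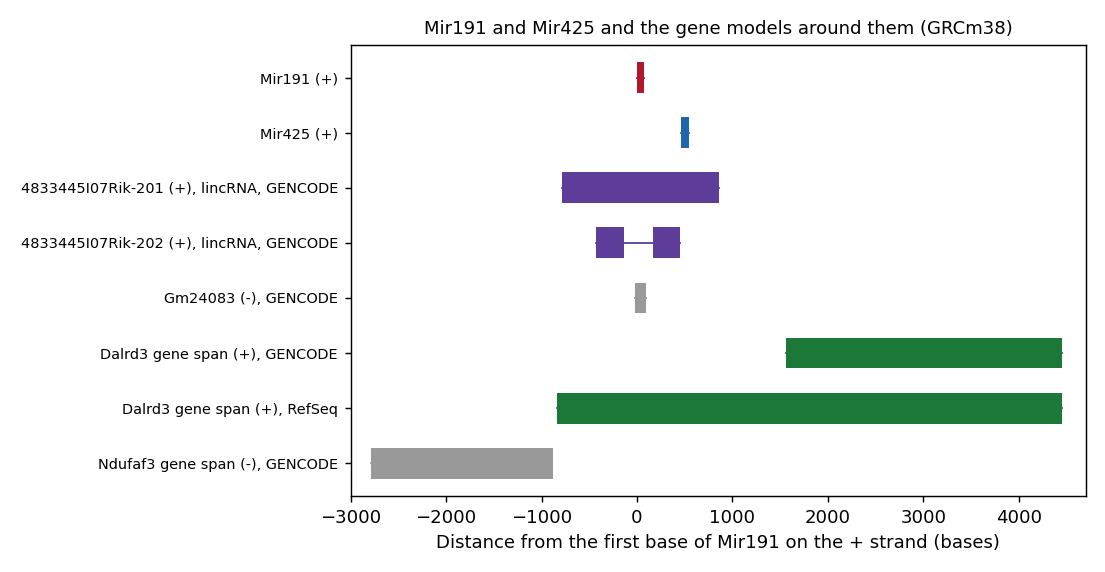
Gene models around both hairpins, by distance in bases from the first base of Mir191. Boxes are hairpins, exons of the 2 lincRNA transcripts or whole gene spans, thin lines are introns, and the strand is in brackets; both hairpins fall inside the RefSeq span of Dalrd3 and before the GENCODE M21 span.

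The cells were checked by markers of macrophages and of other cells. All 7 macrophage and myeloid miRNAs of the list were found, and their counts summed to 53.4% and 52.2% of the libraries. Most of this sum came from miR-21a-5p at 26.8% ± 1.60 and miR-22-3p at 17.2% ± 0.620 (SD, n = 2), which many cell types express. The others were miR-146a-5p at 4.36% ± 2.27, miR-142a-5p at 3.31% ± 0.550, miR-223-3p at 0.527% ± 0.111, miR-142a-3p at 0.482% ± 0.169 and miR-511-3p at 0.0397% ± 0.00659 (SD, n = 2). The sum was close in both libraries while single markers were not, since miR-146a-5p was 2.76% in replicate 1 and 5.96% in replicate 2, and the other 6 were lower in replicate 2 on library totals, where miR-21a-5p and miR-22-3p flip with TMM or DESeq2 scaling. The 19 miRNAs of other cell types summed to 0.0892% and 0.0688%. The highest of these was miR-486a-5p, an erythroid and muscle miRNA, at 0.0498% ± 0.00603 (SD, n = 2). The other erythroid markers were near 0, with 7 and 8 counts of miR-451a and 2 and 0 counts of miR-144-3p. Of the 19, 4 had 0 counts in both libraries, miR-122-5p of hepatocytes, miR-1a-3p and miR-206-3p of muscle and miR-124-3p of neurons. Other markers of the same cells had a few counts, with 0 and 6 for miR-133a-3p of muscle and 12 and 11 for miR-9-5p of neurons. All markers of the macrophage and myeloid list were thus present. The list of other cells was low as a sum, though some of its markers were as abundant as the 3p members or more so. miR-486a-5p and miR-143-3p, the latter at 0.0152% ± 0.00494 (SD, n = 2), were above both 3p members in each library. By mean share miR-141-3p at 0.00511% ± 0.00114 (SD, n = 2) was close to miR-425-3p. miR-199a-3p at 0.00353% ± 0.000415 (SD, n = 2) lay between the 3p members, and the other markers of this list were below both. The part of other cells in the members' values was not tested.

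Among the members, miR-191-5p dominated. It had 170275 counts in replicate 1 and 176900 counts in replicate 2, which is 2.33% (95% Wilson interval 2.31 to 2.34) and 2.19% (2.18 to 2.20) of the library. About 1 in 43.0 counts of replicate 1 and 1 in 45.8 counts of replicate 2 was miR-191-5p. The mean was 2.26% ± 0.0988 (SD, n = 2), rank 9 in each library. The intervals cover counting error within a library only, and may understate it because reads are not independent molecules. The gap between the libraries was wider than either interval.

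miR-425-5p, the main arm of the partner hairpin, had 6197 and 6022 counts in replicates 1 and 2. This was 0.0846% (0.0825 to 0.0868) and 0.0744% (0.0725 to 0.0763) of the library, or 846 and 744 RpM. Its mean of 0.0795% ± 0.00723 (SD, n = 2) gave rank 70, with rank 66 in replicate 1 and 75 in replicate 2. miR-425-5p thus lay well below miR-191-5p in both libraries.

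The 3p arms were rare, and their order was the reverse of the 5p arms. miR-425-3p had 339 and 430 counts, or 46.3 and 53.1 RpM, with a mean of 0.00497% ± 0.000483 (SD, n = 2) and rank 193. miR-191-3p had 209 and 181 counts, or 28.5 and 22.4 RpM, with a mean of 0.00255% ± 0.000437 (SD, n = 2) and rank 241. In each library the level fell from miR-191-5p through miR-425-5p and miR-425-3p to miR-191-3p, and no value of a member in 1 library reached that of another member in the other library. The 4 members summed to 2.34% ± 0.106 (SD, n = 2), of which miR-191-5p gave 96.2% in replicate 1 and 96.4% in replicate 2. All 4 passed the minimum of 10 counts summed over the libraries.

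**Figure D2:**
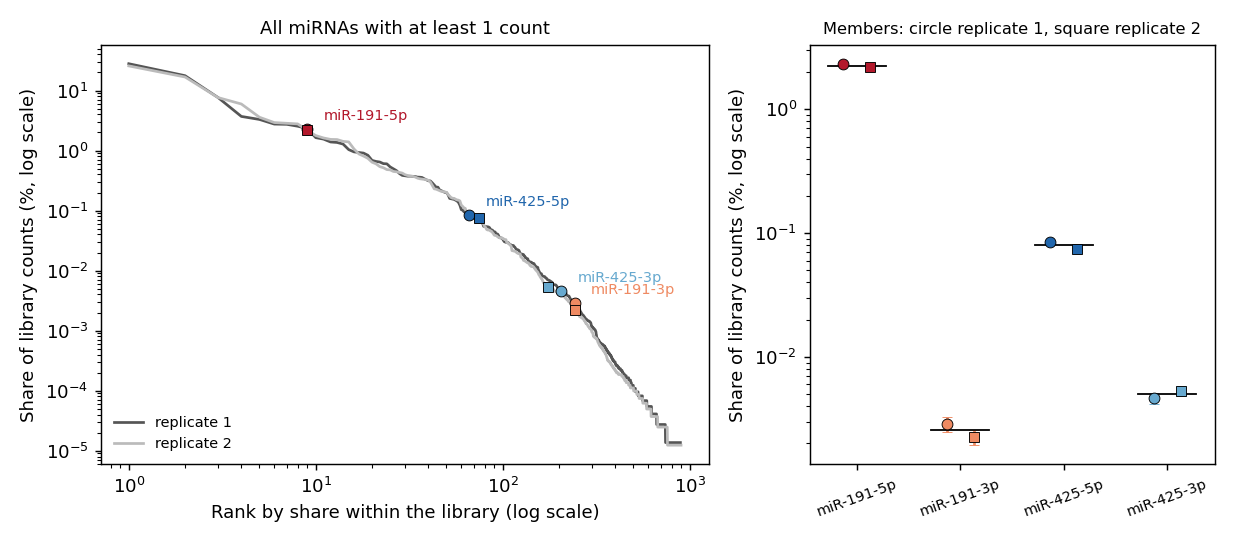
Left, share of library counts (%) against rank for all miRNAs with at least 1 count, 1 line per library, with the members marked. Right, the share of each member in replicate 1 (circle) and replicate 2 (square) with 95% Wilson intervals and the mean as a line; miR-191-5p sits at 2.33% and 2.19%, and the 2 rarest are the 3p arms.

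The neighbours of miR-191-5p in the order of mean shares were separated from it by different margins. Directly above it were miR-10a-5p at 3.04% ± 0.365 and let-7f-5p at 2.70% ± 0.216 (SD, n = 2). Directly below it were let-7i-5p at 1.71% ± 0.0972 and miR-16-5p at 1.59% ± 0.0501 (SD, n = 2). Each of these 4 gaps to miR-191-5p was larger than the SD of either miRNA. The most abundant miRNA, miR-21a-5p, exceeded miR-191-5p by a factor of 12.0 in replicate 1 and 11.8 in replicate 2.

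The lower members were not set apart from their neighbours in this way. miR-425-5p stood between miR-744-5p at 0.0820% ± 0.0164 and miR-221-5p at 0.0790% ± 0.0204, with miR-322-5p above and miR-151-5p below these. miR-425-3p stood between miR-188-5p and miR-1981-5p, with miR-664-3p and miR-466e-3p beyond them. miR-191-3p stood between miR-3470b and miR-33-5p, with miR-24-1-5p and miR-18a-3p beyond them. The shares of these 3 members differed from those of their direct neighbours by less than the SD between the libraries, so their exact ranks are not resolved by 2 libraries.

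The members were set beside a list of 18 miRNAs named for their protein-coding host genes, of which 16 had a RefSeq position and all 16 lay in the named host in GENCODE M21. The other 2, miR-151-3p and miR-378a-3p, had no position to check. All 18 were below miR-191-5p in both libraries, the highest being miR-26a-5p at 1.45% ± 0.121 and miR-378a-3p at 1.34% ± 0.0790 (SD, n = 2). The list was chosen with earlier results of these data known and is not a survey of all miRNAs in host genes. It therefore gives no rank of miR-191-5p among such miRNAs. The median share of the 18 was 0.191%. miR-425-5p lay lower in this list, with 12 of the 18 above it and 6 below it in both libraries. These included miR-25-3p at 0.328% ± 0.00336 above it, and miR-106b-5p at 0.0413% ± 0.00392 below it, both from the intron cluster of Mcm7.

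The ratio of cluster partners was taken within each library, where the library total cancels. miR-191-5p exceeded miR-425-5p by a factor of 27.5 (95% exact interval 26.8 to 28.2) in replicate 1 and 29.4 (28.6 to 30.1) in replicate 2, with a mean of 28.4 ± 1.34 (SD, n = 2). With both arms summed, Mir191 exceeded Mir425 by a factor of 26.1 and 27.4, with a mean of 26.8 ± 0.963 (SD, n = 2). The 5p arms thus stood in nearly the same ratio in both libraries, although the exact intervals did not overlap.

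In the 3p arms miR-425-3p was the higher, by a factor of 1.62 (95% exact interval 1.36 to 1.94) in replicate 1 and 2.38 (1.99 to 2.84) in replicate 2. The mean was 2.00 ± 0.533 (SD, n = 2). The partner with the more abundant guide therefore had the less abundant 3p arm in both libraries, and the size of this reversed ratio was less precisely measured than the ratio of the 5p arms.

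Neighbouring hairpins on the same strand, with at most 1000 bases between them and at least 100 counts summed over the pair, gave 23 pairs for comparison, whose higher hairpin exceeded the lower by a median factor of 4.07. Mir191 and Mir425 ranked 3 of 23, above 90.9% of the other pairs. Directly above them stood Mir532 over Mir188 with 22.7 in replicate 1 and 46.2 in replicate 2, a range that holds both values of Mir191 over Mir425. Directly below stood Mir27b over Mir23b with 20.2 and 23.9, both under the values of Mir191 over Mir425. Hairpins that belong to a row of 3 or more enter more than 1 pair, so the pairs are not all independent.

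Pairs named for comparison, chosen with earlier results of these data known, were far more even and lay below the median factor of 4.07. Mir221 exceeded Mir222 by a factor of 1.90 and 1.31, and Mir27a exceeded Mir23a by 1.32 and 1.52. Mir132 exceeded Mir212 by 3.91 and 3.17. Other pairs were far from even, with 17.7 and 25.9 for Mir298 over Mir296 and 15.9 and 19.9 for Mir34c over Mir34b. These are ratios of counts in mature miRNA, in which adapter ligation and PCR favour some sequences over others, so they do not give the ratio of molecules.

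**Figure D3:**
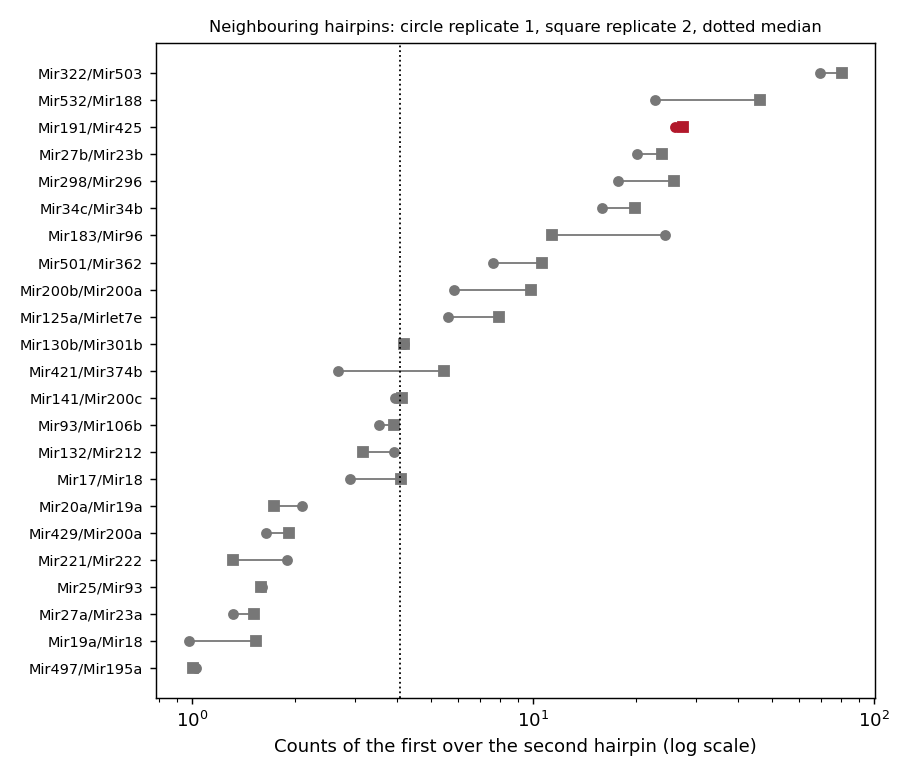
Counts of the higher over the lower hairpin (both arms summed, log axis) for 23 pairs of neighbouring hairpins, in replicate 1 (circle) and replicate 2 (square); the dotted line is the median of 4.07. Mir191 over Mir425, in red, sits at 26.1 and 27.4.

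Both hairpins used the 5p arm as the main arm, to different degrees. In miR-191 the 5p arm made up 99.877% (95% exact interval 99.860 to 99.893) of the hairpin's counts in replicate 1 and 99.898% (99.882 to 99.912) in replicate 2. In miR-425 it made up 94.8% (94.2 to 95.3) and 93.3% (92.7 to 93.9), with a mean of 94.1% ± 1.05 (SD, n = 2). Written as a ratio, miR-191-5p exceeded miR-191-3p by a factor of 815 and 977, and miR-425-5p exceeded miR-425-3p by 18.3 and 14.0. The 3p arm thus took a larger part of miR-425 than of miR-191 in both libraries, at 5.93% against 0.112% on average.

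Among 176 hairpins with both arms listed and at least 100 counts, the main arm was 5p in 98 and 3p in 78, and its median share was 97.2%. miR-191 ranked 22 of 176, with a higher main arm share than 88% of the other hairpins, and than 83.4% of them without replicate 1. miR-425 ranked 106 of 176, higher than 40% of the others. In the order of main arm share, miR-191 stood between miR-351 and miR-326, and miR-425 between miR-467e and miR-669b, with gaps below the SD of miR-191 and of miR-425.

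Abundance differed between the members, so each was also set beside hairpins of like counts, in classes chosen after the counts were seen. Of the 16 hairpins with at least 100000 counts, whose median main arm share was 99.6%, 3 were above miR-191. Of the 45 hairpins with 5000 to 50000 counts, whose median was 96.3%, 17 were below miR-425. miR-191 was thus among the more one-sided of the abundant hairpins, and miR-425 lay somewhat below the middle of its abundance class.

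The change in arm use between the libraries was of ordinary size. From replicate 1 to replicate 2 the log2 odds of the 5p arm differed by 0.26 in miR-191 and by -0.38 in miR-425. Among 89 hairpins with at least 100 counts in each arm, summed over the libraries, the median absolute difference was 0.29, and 48 and 38 hairpins, respectively, differed by more.

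**Figure D4:**
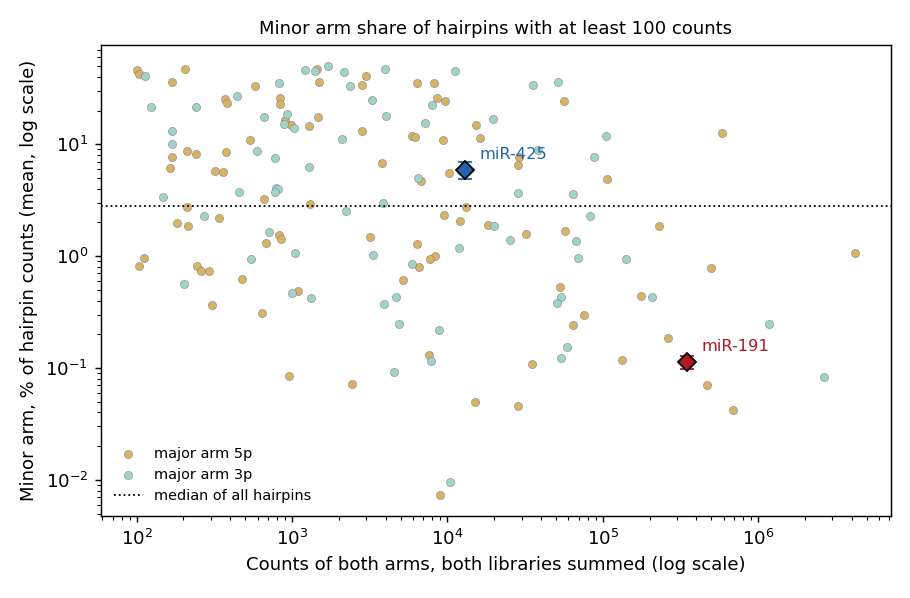
Minor arm as a percent of the hairpin's counts (mean of both libraries, log axis) against the counts of both arms summed over the libraries (log axis), coloured by main arm, with SD bars (n = 2) for miR-191 and miR-425. miR-191 lies at 0.112% and miR-425 at 5.93%, on either side of the dotted median; 10 hairpins whose minor arm had 0 counts are not drawn.

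The first base of a guide bears on which strand Argonaute keeps, so the first bases were counted. miR-191-5p begins with C, miR-191-3p with G, and both arms of miR-425 with A. Of the 30 most abundant miRNAs with a RefSeq sequence, 20 begin with U, 6 with A, 4 with C and 0 with G. The 4 that begin with C are miR-142a-5p, miR-191-5p, miR-99b-5p and miR-186-5p. Of all 468 miRNAs with a sequence and at least 10 counts summed, 180 begin with U, 134 with A, 111 with C and 43 with G.

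The replicate ratios of the members depended on the scaling. On shares of library totals the log2 ratio of replicate 2 over replicate 1 was -0.089 for miR-191-5p, -0.35 for miR-191-3p, -0.19 for miR-425-5p and 0.20 for miR-425-3p. For the 448 miRNAs that had 10 or more counts in each library the median was -0.17 on this scale and -0.044 with trimmed mean of M-values (TMM) scaling. With TMM scaling the members stood at 0.040, -0.22, -0.056 and 0.33 in the same order, so the direction for miR-191-5p flips with the scaling. With DESeq2 size factors they stood at 0.055, -0.21, -0.041 and 0.34. The 5p arms thus had smaller ratios than the 3p arms under these 3 scalings, and which 5p arm had the smaller one differed. With miR-21a-5p left out of the total this order did not hold, at -0.23 for miR-425-5p and 0.15 for miR-425-3p. miR-425-3p was higher in replicate 2 and miR-191-3p and miR-425-5p lower in it under library totals, TMM and DESeq2 size factors.

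Against the spread of all miRNAs the ratios of the members were ordinary. The SD of the log2 ratio over the 448 miRNAs was 0.55, and edgeR gave a biological coefficient of variation of 0.240. In absolute size the ratio exceeded that of 15.4% of the other miRNAs for miR-191-5p, 31.8% for miR-425-5p, 33.3% for miR-425-3p and 53.9% for miR-191-3p. With TMM scaling these were 6.49%, 9.84%, 52.1% and 38.3% in the same order, so miR-425-3p then had the largest ratio of the members. Of the 14 miRNAs with a mean count of at least 100000, 3 had a ratio closer to 0 than miR-191-5p had, and 1 had with TMM.

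Fisher's exact test (two-sided, Benjamini-Hochberg adjustment over 588 miRNAs) found 3 of the 4 members different between the libraries, where 260 of the 588 tested (44.2%) were. All 3 were lower in replicate 2, as were 179 (30.4%) of those tested, and 81 (13.8%) were higher. The adjusted p of this exact test was 7.39e-75 for miR-191-5p at a fold of 0.940, 5.60e-12 for miR-425-5p at 0.879 and 0.0390 for miR-191-3p at 0.783, and miR-425-3p did not pass at 0.123 and a fold of 1.15. With TMM scaling 122 were higher and 137 lower. Under TMM and under DESeq2 size factors miR-425-5p and miR-191-3p no longer passed while miR-425-3p did and miR-191-5p passed as higher, and without the filter on low counts miR-191-3p did not pass. The test compares these libraries, not conditions, and covers counting error only; with so many miRNAs past it, passing it does not set a member apart.

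**Figure D5:**
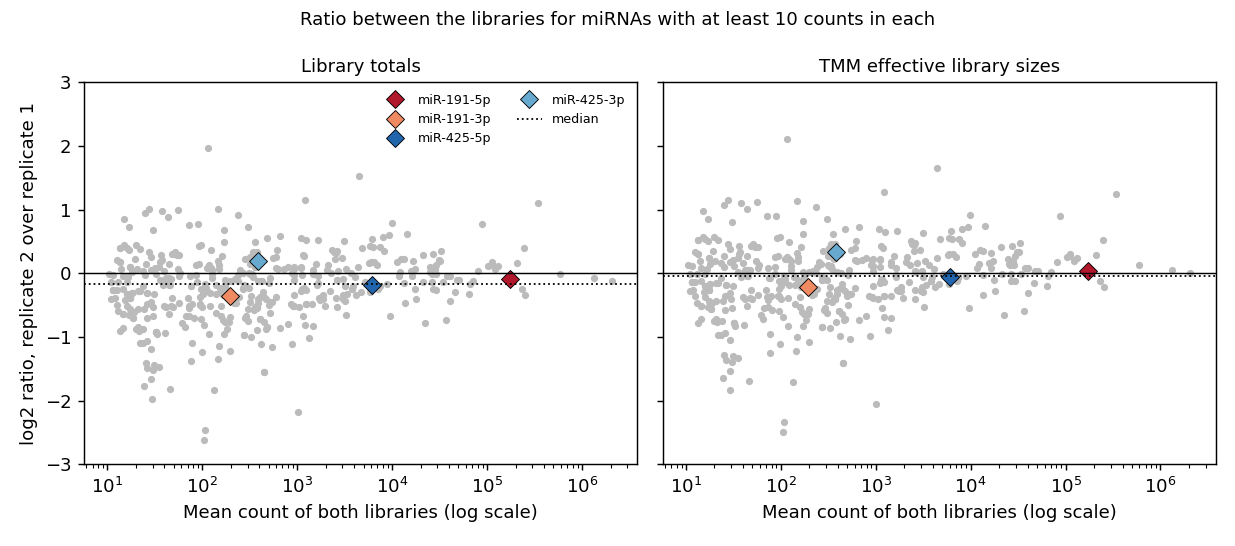
log2 ratio of replicate 2 over replicate 1 against mean count (log axis) for 448 miRNAs with at least 10 counts in each library, on library totals (left) and with TMM effective library sizes (right); the dotted line is the median and the members are diamonds. miR-191-5p moves from -0.089 to 0.040, so its direction flips with the scaling.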

How the data were processed

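Small RNA of unstimulated BMDMs was sequenced by the authors after rRNA depletion, and the reads were trimmed and mapped with Bowtie 0.12.7 to mouse stem-loops of miRBase. The release of miRBase, the treatment of reads with several matches and the number of mice behind each library are not given in the sources used here. The authors deposited raw counts per mature miRNA name, with replicates kept apart and no normalization. A further library of the study was not analysed here.

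Shares are counts over library totals, in percent or RpM, with Wilson 95% intervals; ratios and arm shares have exact (Clopper-Pearson) intervals. The totals were 7322969 and 8094314 counts; the intervals cover counting error and not the spread between libraries, which rests on 2 of them. With a single group no quasi-likelihood test was possible. Each miRNA with at least 10 counts summed was compared between the libraries by Fisher's exact test with Benjamini-Hochberg adjustment at 0.05. The libraries are labelled as biological replicates, and p-values measure only the difference between them. TMM scaling and the biological coefficient of variation came from edgeR 4.0.16 and size factors from DESeq2 1.42.0 in R 4.3.3; both DESeq2 size factors were 1, so that scaling compares the raw counts.

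RefSeq sequences (GRCm38.p6) matched 1623 of 1915 names, which held 94.2% and 93.4% of counts. Hairpins of neighbouring pairs had no mature name listed with several gene copies in RefSeq, and counts of both arms were found by name root. Gene copies could not be checked for arms that the table lacks, among them miR-23b-3p, miR-34c-5p and miR-532-5p. Structures were predicted with ViennaRNA 2.7.2. Tests ran in Python 3.11.15 with scipy 1.17.1. Fisher's test was first checked on simulated counts with counting error only, a setting that lacks the spread between these libraries.

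Named miRNAs are the members, miR-21a-5p, the 2 miRNAs above and the 2 below each member by mean share, miRNAs with a member's seed, 3 pairs of neighbouring hairpins, the pairs and hairpins next to the members in the orders of ratio and arm share, 18 miRNAs in protein-coding host genes, and markers of macrophages and other cells. The members and lists were chosen with earlier results of these data known.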

Additional observations from a re-analysis of the deposited data

How the results depend on the processing

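Of 78 alternatives, 58 moved a value by less than its SD between the libraries, kept a test's direction and call, or kept a count within 1.5 times; a mean without 1 of 2 replicates moves by less than its SD by construction. Leaving miR-21a-5p out of the total raised the shares of miR-191-5p, miR-191-3p, miR-425-5p and miR-425-3p to 3.09%, 0.00349%, 0.109% and 0.00679%, by construction. Summing both arms gave a ratio of 26.8 for the cluster partners. With a minimum of 10 counts the main arm percentile was 79.9 for miR-191 and 45.4 for miR-425; without 1 replicate it ran from 83.4 to 88 for miR-191. The pair percentile was 85.7 with hairpins up to 10000 bases apart and 86.7 over pairs whose hairpins belong to no other pair, a setting chosen after seeing the data, and ran from 90.9 to 95.5 without 1 replicate. The log2 ratio of miR-191-5p between the libraries reversed to 0.040 with TMM and 0.055 with DESeq2 size factors, since each replaces the library total by another scale. Of the other ratios, 5 tests were weaker and 2 stronger under an alternative, in each case with the direction kept. No paired analysis was possible because only 1 group was sequenced. The 3p arms rest on 181 to 430 counts each and every SD on 2 libraries, and which limit is the larger was not tested; leaving out a replicate leaves 1 library and no SD.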

Other observations

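miR-191-5p has been used as a reference in miRNA profiling, and a list of miRNAs used in that way was looked at after the values of the members were seen. The coefficient of variation between the libraries was 4.38% for miR-191-5p, 1.40% for miR-93-5p, 3.16% for miR-16-5p, 6.70% for miR-103-3p and 9.13% for miR-423-3p. It was 15.8% for let-7a-5p and 29.0% for miR-423-5p. On library totals miR-93-5p and miR-16-5p were thus less variable than miR-191-5p. The order depends on the scaling: the log2 ratio of replicate 2 over replicate 1 with TMM was 0.040 for miR-191-5p, 0.16 for miR-93-5p and 0.19 for miR-16-5p, and miR-191-5p was then closest to 0 of the 7, as it was with DESeq2 size factors.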
